A study of Mus musculus with 4 samples.

Results

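The genes that write and read methylation of histone H3 on lysine 9 (H3K9), together with *Arid5b*, were examined by RNA-seq in WT and *Phf2* KO mouse embryonic fibroblasts (MEFs). The 10 genes were chosen by symbol: the H3K9 methyltransferases *Ehmt1*, *Ehmt2*, *Suv39h1*, *Suv39h2*, *Setdb1* and *Setdb2*, the heterochromatin protein 1 (HP1) genes *Cbx1*, *Cbx3* and *Cbx5*, and *Arid5b*, whose product is a partner of Phf2. All 10 were found among the 24391 gene symbols of the count table, and 10 of 10 passed the filter on low counts that left 13668 genes for testing. The study made 2 WT and 2 *Phf2* KO libraries. The labels give the genotype Phf2 flox/flox, ERCre/+ for all 4 libraries, WT included, with tamoxifen for the *Phf2* KO and no tamoxifen for the WT libraries. ERCre is the CreERT2 recombinase, expressed from the Rosa26 locus and active only with 4-hydroxytamoxifen (4-OHT). The cells were grown to confluence and arrested in medium with charcoal-treated serum, with 0.5 µM 4-OHT for 7 days for the deletion, and the protocol describes both primary MEFs from mid-gestation embryos and immortalized MEFs without naming which were sequenced. No library had 4-OHT without deletion and a vehicle for WT is not named, so effects of Phf2 loss, Cre activity and 4-OHT cannot be told apart. The labels do not tie the replicates to separate embryos or cultures, and p-values then measure the spread between these libraries, whose replicate numbers differ in *Xist*, *Ddx3y* and macrophage markers (values given with the libraries).

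In animals, H3K9 methylation marks silent chromatin. Ehmt1 and Ehmt2 (also called GLP and G9a) act as a dimer and place mainly mono- and dimethyl marks in euchromatin. Suv39h1 and Suv39h2 trimethylate H3K9 at pericentromeric repeats, and Setdb1 does so at retroelements and other targets to which Trim28 recruits it. The HP1 proteins HP1α (*Cbx5*), HP1β (*Cbx1*) and HP1γ (*Cbx3*) bind the methylated lysine through a chromodomain and in turn bind further proteins, Suv39h enzymes among them. Phf2 belongs to a family of demethylases that act on this mark, and Arid5b, a protein with a DNA-binding ARID domain, has been described to bring Phf2 to its target genes.

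None of the 10 genes was called different between *Phf2* KO and WT MEFs when genotype alone was fitted. That fit did not call the deleted *Phf2* either (edgeR's quasi-likelihood adjusted p = 0.999), so a missing call is weak evidence of no change. With the replicate number as a block, edgeR called *Arid5b* lower (quasi-likelihood adjusted p = 0.088), as were 5.20% of all genes. RNA of the methyltransferases stood at between 73.2% (*Setdb2*) and 110.3% (*Ehmt1*) of the WT mean, that of the HP1 genes at between 88.8% (*Cbx5*) and 104.7% (*Cbx1*), and that of *Arid5b* at 86.1%. With edgeR (quasi-likelihood test, Benjamini-Hochberg adjustment over all genes tested) 0 of the 10 genes were called higher at an adjusted p-value under 0.1, where 0.00% of all genes were, and 0 were called lower, where 0.00732% were. At an unadjusted p-value under 0.05 the counts were also 0 in both directions, against 1.54% of all genes higher and 2.67% lower. DESeq2 called 0 of the 10 (0.0625% of all genes higher and 0.338% lower), and so did limma-voom. Of the 10 log2 fold changes, 5 were above 0, as were 51.2% over all genes, and 5 below, as were 48.8%. The median log2 fold change of the 10 genes was -0.057, and that of all genes tested 0.0054. The median size of the change without its sign was 0.14 for the 10 genes and 0.12 for all genes tested. The groups did not overlap for 5 of the 10: *Ehmt1* was higher in both *Phf2* KO libraries, as 15.5% of all genes were, and *Suv39h1*, *Setdb2*, *Cbx5* and *Arid5b* were lower in both, as 18.0% of all genes were.

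**Figure D1:**
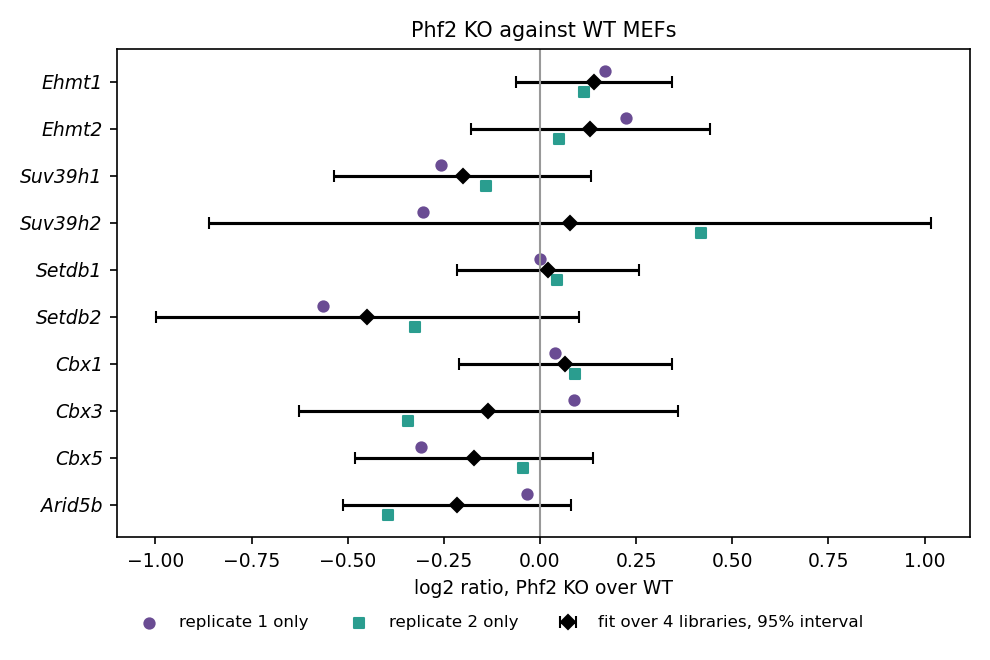
Log2 ratio of *Phf2* KO to WT for each gene. Diamonds and bars give the fit over all 4 libraries with its 95% interval, circles the ratio of the replicate 1 libraries and squares that of the replicate 2 libraries. All 10 intervals include 0, and the widest is that of *Suv39h2*, from -0.86 to 1.02.

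*Phf2* itself was checked first. On the CPM scale (counts scaled to a common library size, with TMM factors for composition) it stood at 134.6 and 141.8 CPM in WT replicates 1 and 2 and at 70.2 and 89.8 CPM in *Phf2* KO replicates 1 and 2. The *Phf2* KO libraries thus held 57.9% of the WT mean, with a log2 fold change of -0.79 (standard error 0.14, unadjusted p = 0.0033, edgeR's quasi-likelihood adjusted p = 0.999). When the edgeR fit was blocked by replicate number, *Phf2* was called lower (log2 fold change -0.80, standard error 0.083, adjusted p = 7.67e-19). The counts cover the whole gene (chromosome 13 of mm9, 48897119 to 48966254, reverse strand), so floxed exons were not counted apart. For *Phf2* KO MEFs the paper reports Phf2 depletion in immunoblots and loss of almost all Phf2 ChIP-seq peaks. These are measures of the protein, not of its RNA. The 4 libraries held between 21094743 and 26094268 counts. The limit of detection, set at 3 counts, came to 0.116 to 0.145 CPM and covers counting error only.

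Levels of the genes were compared per length, as CPM per kb of annotated exonic sequence (GENCODE vM1 on NCBIM37, which is mm9). *Ehmt2* was the most abundant, at 46.5 ± 5.65 CPM per kb in WT and 50.9 ± 1.87 CPM per kb in *Phf2* KO MEFs (mean ± SD, n = 2 in each). *Arid5b* followed with 30.3 ± 2.90 and 26.1 ± 2.10, and *Ehmt1* with 10.8 ± 0.406 and 11.9 ± 0.133 CPM per kb. A middle group held *Cbx1* (9.34 ± 0.445 in WT), *Setdb1* (8.24 ± 0.442) and *Cbx5* (6.47 ± 0.0173). Below it lay *Suv39h1* at 3.32 ± 0.286 and *Cbx3* at 2.36 ± 0.358 CPM per kb in WT. The lowest were *Setdb2* at 0.995 ± 0.115 and *Suv39h2* at 0.20 ± 0.023 CPM per kb in WT. Neighbours in this order did not overlap between their 2 libraries in WT or in *Phf2* KO, and the order was the same in both groups. The release the authors counted on is not given in the sources used here, so these lengths are an approximation.

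**Figure D2:**
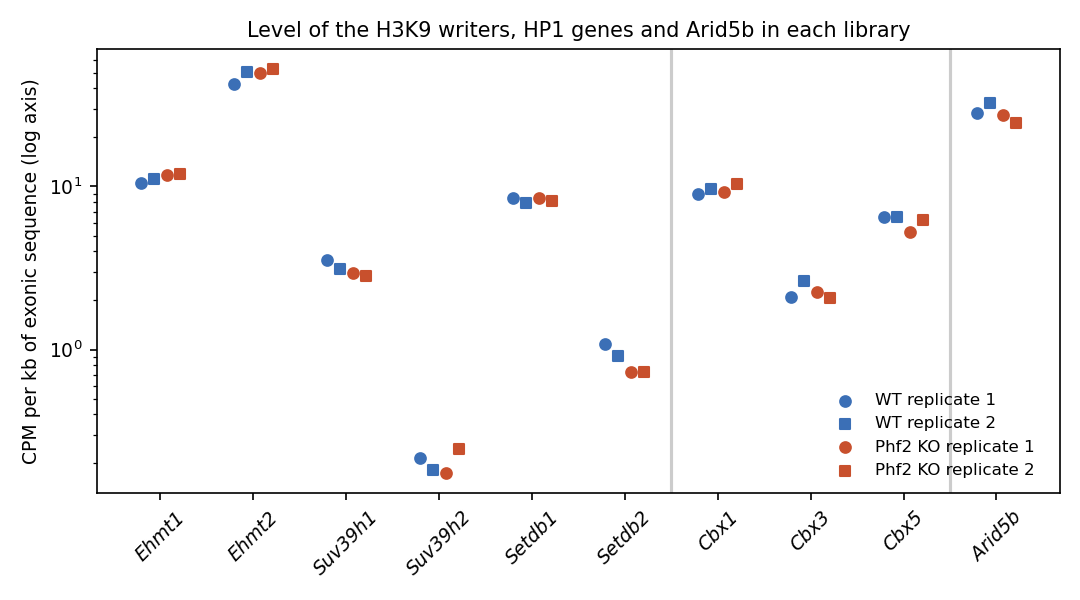
Level of each gene in the 4 libraries, in CPM per kb of annotated exonic sequence on a log axis. Blue symbols are WT and red symbols *Phf2* KO libraries, circles replicate 1 and squares replicate 2. The genes span from 0.175 CPM per kb for *Suv39h2* to 52.2 CPM per kb for *Ehmt2*, and the symbols of a gene lie close together on this scale.

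The place of *Cbx3* in this order depends on how repeated sequence was counted. *Cbx3* lies on chromosome 6 of mm9 (51420359 to 51433703, forward strand, 6 blocks of exons), and the reads were single and 50 nt long. Every stretch of 50 bases in its annotated coding transcripts was searched for in the rest of mm9 on both strands. Of 2146 such stretches, 1565 (72.9%) had an exact copy outside the gene, and among the 552 within the coding sequence 82.1% did. The copies lay in 18 places on 8 chromosomes. A single place on chromosome 14 (74353724 to 74355433), annotated as Gm6984, held 1548 of the stretches, and another on chromosome 1 (58703440 to 58705161), annotated as Gm10068, held 1253. None of the coding stretches of *Cbx1* or *Cbx5* had a copy elsewhere. The first 50 coding bases of the 3 HP1 genes are given here with the start codon in capitals, to show the contrast, followed by the stretch of *Cbx3* (bases 155 to 204 of transcript Cbx3-001) with the most copies. The first stretch of *Cbx3* had 4 exact copies elsewhere and the other 8, against 0 for those of *Cbx1* and *Cbx5*.
Cbx1: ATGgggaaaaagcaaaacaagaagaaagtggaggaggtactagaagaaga
Cbx5: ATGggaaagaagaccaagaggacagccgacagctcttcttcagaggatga
Cbx3: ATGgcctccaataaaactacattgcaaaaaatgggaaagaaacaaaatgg
Cbx3, most copied: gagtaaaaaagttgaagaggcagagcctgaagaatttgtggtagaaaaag

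How the authors counted reads that align in several places is not given in the sources used here. If such reads were left out, only stretches without a copy could gain counts. Per 1000 of these stretches, *Cbx3* stood at 13.1 ± 1.99 CPM in WT and 12.0 ± 0.710 CPM in *Phf2* KO MEFs (mean ± SD, n = 2 in each). *Cbx1* then had 16.6 ± 0.791 and *Cbx5* 6.45 ± 0.0172 in WT, so *Cbx3* lay between the other HP1 genes and no longer below them. On this scale *Cbx1* passed *Ehmt1* (14.4 ± 0.542 in WT), and in WT the range of *Cbx3* overlapped those of *Ehmt1* and *Setdb1*. The scale also changes the length used, since the stretches come from coding transcripts alone and the exonic length from all annotated transcripts. *Cbx1* had 2427 stretches against 4273 exonic bases, *Ehmt1* 5336 against 7115, and *Cbx3* 2146 against 3229. *Ehmt1* had 0 repeated stretches, so the scales do not differ by repeats alone. *Setdb1* had the next largest share of repeated stretches (8.29%), with all 390 of them in a place on chromosome 3 (95231499 to 95234362) that is annotated as Gm4349. Of the other 8 genes, *Cbx1* had the largest share (0.948%). *Cbx3* and *Setdb1* counts are therefore less certain than those of the other genes.

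**Figure D3:**
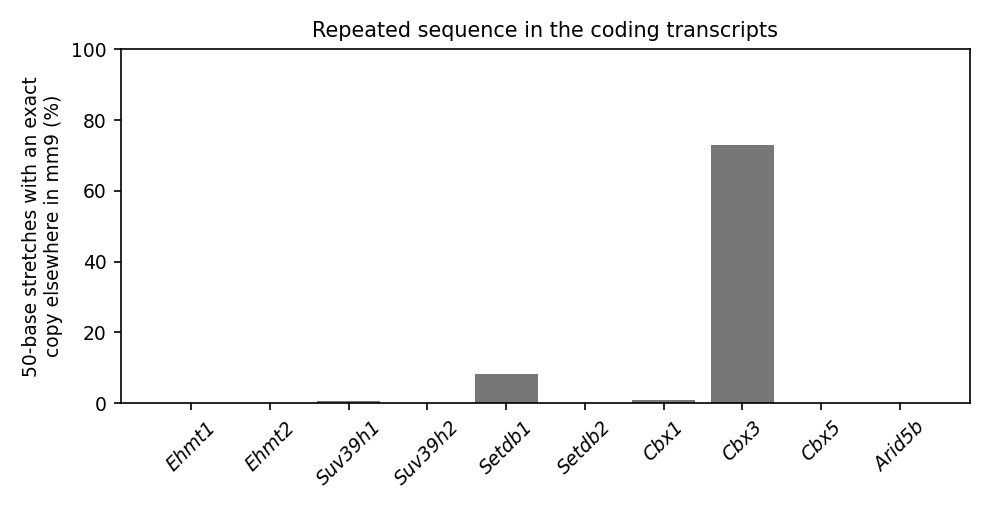
Share of the 50-base stretches in the annotated coding transcripts of each gene that have an exact copy elsewhere in mm9, in percent. The bar of *Cbx3* reaches 72.9% and that of *Setdb1* 8.29%, and the other 8 lie at or under 0.948%.

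Among the euchromatic methyltransferases, *Ehmt1* (chromosome 2, 24646289 to 24775129) was counted at 74.8 and 78.8 CPM in WT and at 84.0 and 85.4 CPM in *Phf2* KO replicates 1 and 2. Both *Phf2* KO libraries were above both WT libraries, and the step was similar in each replicate. The log2 fold change of 0.14 had a standard error of 0.077 and a 95% interval from -0.062 to 0.34. *Ehmt2* (chromosome 17, 35035414 to 35050997), which encodes the catalytic partner of Ehmt1, was counted at 233.2 and 277.1 CPM in WT and at 272.3 and 286.8 CPM in *Phf2* KO MEFs. WT replicate 1 stood below the other 3 libraries and the groups overlapped. Its log2 fold change was 0.13 (standard error 0.12, 95% interval from -0.18 to 0.44), 0.22 between the replicate 1 libraries and 0.049 between the replicate 2 libraries.

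*Suv39h1*, on the X chromosome (7638297 to 7651886), was counted at 18.6 and 16.5 CPM in WT and 15.5 and 14.9 CPM in *Phf2* KO MEFs. Both *Phf2* KO libraries lay below both WT libraries, by a log2 fold change of -0.20 (standard error 0.13, 95% interval from -0.54 to 0.13). The ratio was -0.26 between the replicate 1 libraries and -0.14 between the replicate 2 libraries. *Suv39h2* (chromosome 2, 3373087 to 3392303) had 23 and 21 counts in WT against 16 and 26 in *Phf2* KO MEFs, which gave 0.954, 0.809, 0.772 and 1.08 CPM. The *Phf2* KO libraries lay on either side of both WT libraries, with ratios of -0.31 for replicate 1 and 0.42 for replicate 2. Its log2 fold change of 0.078 (standard error 0.35) became -0.051 without WT replicate 2 and -0.19 without *Phf2* KO replicate 2. At these counts, and with 2 libraries per group, the 95% interval ran from -0.86 to 1.02. Changes of either sign within this interval are compatible with these libraries. The transcribed region of *Suv39h2* overlaps that of *Dclre1c* on the opposite strand, and *Suv39h1*, *Setdb1* and *Cbx1* overlap other opposite-strand genes. The Suv39h enzymes thus differed in level much more than between the groups, *Suv39h1* being the more abundant in all 4 libraries.

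*Setdb1* (chromosome 3, 95127447 to 95161124) was counted at 58.6 and 54.3 CPM in WT and at 58.6 and 55.9 CPM in *Phf2* KO MEFs. The *Phf2* KO libraries lay within the range of the WT libraries or at its edge, and the log2 fold change was 0.021 (standard error 0.089, 95% interval from -0.22 to 0.26). It became -0.0485 without WT replicate 2 and -0.014 without *Phf2* KO replicate 1. *Setdb2* (chromosome 14, 60020846 to 60059721), a relative with a SET domain and a methyl-CpG-binding domain, had 105 and 96 counts in WT against 61 and 71 in *Phf2* KO MEFs, which gave 4.36, 3.70, 2.94 and 2.95 CPM. Both *Phf2* KO libraries were below both WT libraries. The log2 fold change of -0.45 was the largest of the 10, with a standard error of 0.21 and a 95% interval from -0.998 to 0.10 (unadjusted p = 0.088, edgeR's quasi-likelihood adjusted p = 0.999). Within replicate 1 the ratio was -0.57, with an exact binomial 95% interval from -1.05 to -0.097 that covers counting error only. Within replicate 2 it was -0.32, with an interval from -0.79 to 0.13. The transcribed region of *Setdb2* overlaps that of Gm16301 on the same strand, and the effect of this overlap on its counts was not tested.

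Of the HP1 genes, *Cbx5* (chromosome 15, 103021975 to 103070247) was counted at 58.4 and 58.2 CPM in WT and at 47.1 and 56.4 CPM in *Phf2* KO MEFs. *Phf2* KO replicate 1 stood apart from the other 3 libraries, which were within a few CPM of each other. The log2 fold change was -0.17 (standard error 0.12, 95% interval from -0.48 to 0.14), made up of -0.31 in replicate 1 and -0.044 in replicate 2. *Cbx1* (chromosome 11, 96650441 to 96669954) was counted at 38.6 and 41.3 CPM in WT and 39.6 and 44.0 CPM in *Phf2* KO MEFs, and its groups overlapped. Its log2 fold change was 0.066 (standard error 0.10, 95% interval from -0.21 to 0.34) and became -0.012 without *Phf2* KO replicate 2. *Cbx3* had 164 and 219 counts in WT against 150 and 160 in *Phf2* KO MEFs, which gave 6.80, 8.44, 7.24 and 6.66 CPM. WT replicate 2 was above the other 3 libraries, and the log2 fold change of -0.13 (standard error 0.19, 95% interval from -0.63 to 0.36) became 0.014 without WT replicate 2. No difference between the changes of the 3 HP1 genes was tested.

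*Arid5b* (chromosome 10, 67558341 to 67741474, 11 blocks of exons) had 3156 and 3891 counts in WT against 2648 and 2742 in *Phf2* KO MEFs. These counts were 130.9 and 149.95 CPM in WT and 127.8 and 114.1 CPM in *Phf2* KO MEFs. Both *Phf2* KO libraries were below both WT libraries, but the replicate 1 libraries lay close together. The log2 fold change was -0.22 (standard error 0.11, 95% interval from -0.51 to 0.081, unadjusted p = 0.12, edgeR's quasi-likelihood adjusted p = 0.999). The ratio was -0.035 in replicate 1, with an exact binomial 95% interval from -0.11 to 0.040 for counting error, and -0.39 in replicate 2, with an interval from -0.47 to -0.32. The counting intervals of the replicates do not overlap. With the replicate number added to the edgeR fit as a block, *Arid5b* was the 1 gene of the 10 called lower (adjusted p = 0.088), where 5.20% of all genes were, and 0 were called higher, where 5.77% were. Among 10527 other genes (mean count 100 or more), those nearest to *Arid5b* in the distance between log2 CPM profiles over the 4 libraries were *Rbfa* (distance 0.021), *Mpp7* (0.032) and *Fbxl18* (0.040). Profiles over 4 libraries can lie close without shared regulation, which was not tested. The paralog *Arid5a* went the other way. It was counted at 13.4 and 11.2 CPM in WT and 19.2 and 16.2 CPM in *Phf2* KO MEFs, with both *Phf2* KO libraries higher and a log2 fold change of 0.52 (standard error 0.17, unadjusted p = 0.029, edgeR's quasi-likelihood adjusted p = 0.999). With the replicate block, edgeR called *Arid5a* higher (log2 fold change 0.52, adjusted p = 0.000929).

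The libraries also differed between the replicate numbers. *Xist*, the RNA of the inactive X chromosome, had 10042 (WT) and 8336 (*Phf2* KO) counts in replicate 1 against 3 and 12 in replicate 2. The Y-linked *Ddx3y* had 6 and 10 counts in replicate 1 against 1271 and 1295 in replicate 2. Of 23 macrophage markers in the table, 21 were tested. All 21 were higher in both replicate 1 libraries than in both replicate 2 libraries, against 24.2% of all genes. Led by *Lyz2*, *Cd68* and *Laptm5*, they summed to 5013 and 5539 CPM in WT and *Phf2* KO replicate 1 and 1077 and 1656 CPM in replicate 2, and none of the 23 was at 0 in every library. The *Phf2* KO sum was 1.10 times that of WT in replicate 1 and 1.54 times in replicate 2. With the replicate block, edgeR called *Lyz2* (log2 fold change 0.62, adjusted p = 7.89e-08) and *Laptm5* (0.39, adjusted p = 0.000442) higher in *Phf2* KO MEFs, as were 5.77% of all genes. *Cd68* was not called (0.12, adjusted p = 0.51). Proliferation genes summed to 521.6 and 435.1 CPM in replicate 1 and 361.2 and 372.3 CPM in replicate 2. Of these 25 genes, 16 were higher in both replicate 1 libraries, against 24.2% of all genes. All 19 fibroblast markers were detected, led by *Col1a1*, *Col1a2* and *Fn1*, and their sum was 91929 and 95516 CPM in WT and 82789 and 79621 CPM in *Phf2* KO replicates 1 and 2, with 8 of 19 lower and 1 (*Fap*) higher in both *Phf2* KO libraries, against 18.0% and 15.5% of all genes. The sums were at most 49.0 CPM for 9 endothelial and 4.45 CPM for 8 epithelial markers, with the endothelial markers *Cldn5* and *Tie1*, 2 in all, at 0 in every library. In such bulk samples, fewer cells of a type and less RNA per cell cannot be told apart. The part of these differences in the values of the 10 genes was not tested.

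Against this background the 10 genes were compared between the replicate numbers. A gene was taken to differ only where both replicate 1 libraries lay above, or both below, both replicate 2 libraries. *Setdb1* was higher in both replicate 1 than in both replicate 2 libraries, as were 24.2% of all genes, and *Ehmt2* and *Cbx1* were lower, as were 25.4%. The log2 ratios of replicate 1 to replicate 2 for *Ehmt2* were -0.25 in WT and -0.075 in *Phf2* KO MEFs, and those for *Setdb1* were 0.11 and 0.067. *Arid5b* differed in opposite directions, by -0.20 in WT and 0.16 in *Phf2* KO MEFs. The X-linked *Suv39h1* was 0.18 higher in replicate 1 in WT and 0.057 higher in *Phf2* KO MEFs, with counting intervals that both include 0. For *Cbx5* the WT replicates differed by 0.0055 and the *Phf2* KO replicates by -0.26, so its lower mean in *Phf2* KO MEFs came with a wider spread.

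**Figure D4:**
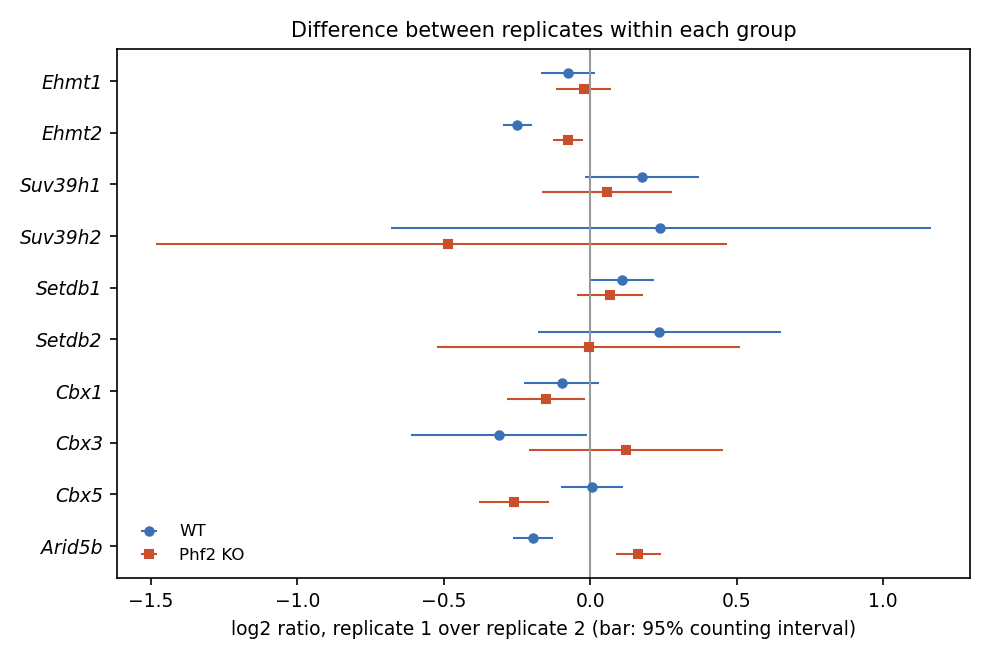
Log2 ratio of replicate 1 to replicate 2 within WT (blue circles) and *Phf2* KO (red squares) for each gene, with exact binomial 95% intervals that cover counting error only. *Arid5b* lies at -0.20 in WT and 0.16 in *Phf2* KO MEFs, and the interval of *Suv39h2* in *Phf2* KO spans from -1.48 to 0.47.

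The other genes of H3K9 methylation were described from a list of 35, of which 33 were tested. Of these, 0 were called in either direction by edgeR's quasi-likelihood test. At an unadjusted p-value under 0.05 in that test, 1 was higher and 0 lower, against 1.54% and 2.67% of all genes. The median log2 fold change of the 33 genes was 0.0071. Among 9 H3K9 demethylases tested, changes ran from -0.19 for *Jmjd1c* to 0.16 for *Kdm7a*, and the Phf2 paralogs *Phf8* (33.8 ± 2.84 CPM in WT, 36.3 ± 0.333 CPM in *Phf2* KO) and *Kdm7a* (8.68 ± 1.19 and 9.68 ± 0.510) had intervals from -0.18 to 0.38 and from -0.30 to 0.61. The 4 partners of the methyltransferases all had values below 0, between -0.21 for *Zfp644*, whose product binds Ehmt1 and Ehmt2, and -0.073. The readers other than HP1 lay between 0.0071 and 0.12, and the PRDM methyltransferases between -0.17 for *Prdm16* and 0.020. The genes of the HUSH complex, which silences retroelements through H3K9 methylation, lay with *Morc2a* between -0.20 for *Pphln1* and 0.15. Among 6 HP1 partners the lowest value was -0.21, for *Lbr*, which encodes the lamin B receptor that ties HP1 to the nuclear envelope (16.3 and 15.3 CPM in WT, 14.1 and 13.2 CPM in *Phf2* KO MEFs).

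Of the H4K20 methyltransferases, which act downstream of HP1, 2 were tested, and *Suv420h2* had a log2 fold change of 0.43 (standard error 0.20, unadjusted p = 0.087, edgeR's quasi-likelihood adjusted p = 0.999). With the replicate block, edgeR called *Suv420h2* higher (log2 fold change 0.44, adjusted p = 0.000138). It was counted at 26.7 and 36.9 CPM in WT and at 38.8 and 47.2 CPM in *Phf2* KO MEFs. The *Phf2* KO library was above the WT library of the same number in each replicate, and values were higher in replicate 2 than in replicate 1 within each group. Of the 33 genes, 4 were higher in both *Phf2* KO libraries than in both WT libraries and 4 were lower, against 15.5% and 18.0% of all genes.

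**Figure D5:**
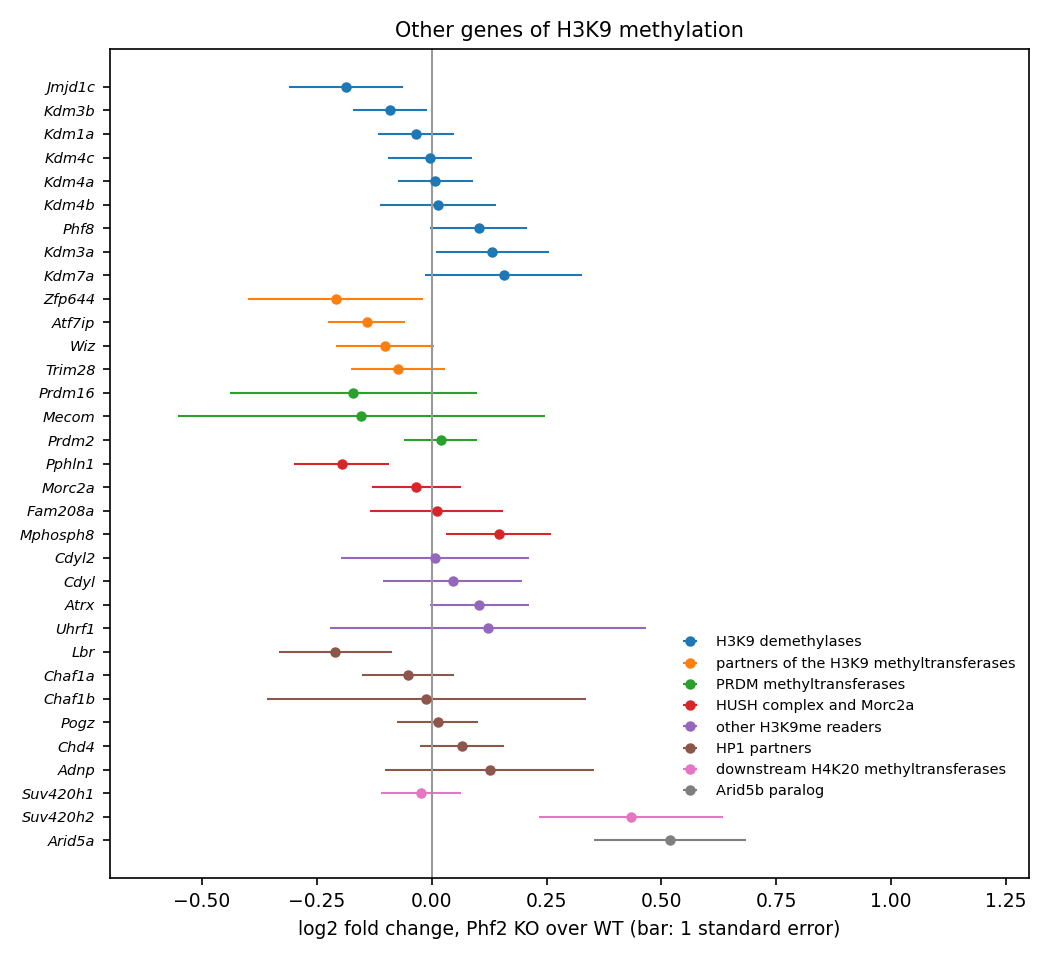
Log2 fold change of *Phf2* KO against WT for the 33 tested genes of the list, grouped by role, with bars of 1 standard error. *Arid5a* at 0.52 and *Suv420h2* at 0.43 lie furthest to the right, and the other 31 lie between -0.21 and 0.16.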

How the data were processed

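RNA-seq counts of 2 WT and 2 *Phf2* KO libraries of MEFs were used. Single 50-base reads had been trimmed (Trim Galore), cleared of rRNA (Bowtie2), mapped on mm9 by STAR with a reverse-stranded setting, and assigned to genes by featureCounts, per the methods and the processing notes of the submitters. The values the authors deposited are raw counts. A second deposited table holds the authors' DESeq2 comparison (mean, fold changes, standard errors, p-values) and was not used.

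Genes were kept with filterByExpr, scaled by TMM and tested for genotype with edgeR 4.0.16 (glmQLFit, glmQLFTest; R 4.3.3), adjusted by Benjamini-Hochberg over 13668 genes and called under 0.1. The standard error is the log2 fold change over the root of F. CPM are relative to TMM-scaled totals of the tested genes. DESeq2 1.42.0, limma 3.58.1 (voom), a likelihood ratio test, other scalings, filters and thresholds, a replicate block, and leaving out each library in turn were the alternatives. The tests were tried on simulated data. Positions and transcripts came from GENCODE vM1, and figures from Matplotlib 3.10.9.

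The 10 genes and the lists were chosen with earlier results of these data known. Named beside them are *Phf2*, *Phf8*, *Kdm7a* and, of the H3K9 list, the genes called by edgeR with or without the block. Also named are the 5 others of that list with the largest changes, the 3 nearest to *Arid5b* in profile and up to 3 abundant markers per marker list. Further markers were called in the blocked fit and are not named. *Xist*, *Ddx3y*, *Fap*, *Cldn5* and *Tie1* were chosen after their values were seen.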

Additional observations from a re-analysis of the deposited data

How the results depend on the processing

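Without the replicate block, none of the 10 genes or the 33 others was called under any tool, scaling, filter or threshold, or with any library left out. *Suv39h2* failed the filter of at least 1 CPM in 2 libraries. Over all genes, where the main fit gave 0 higher and 1 lower, DESeq2 gave 10 and 54, the likelihood ratio test 3 and 38, limma-voom 0 and 0, and a threshold of 0.05 gave 0 and 0 (at an unadjusted p-value under 0.05, 211 and 365). With each library left out, 0 were lower in every case; these fits leave a group with 1 library, assumed to vary like the other. The cause of these differences was not tested. Left-out libraries turned the sign of 4 log2 fold changes: *Suv39h2* ranged from -0.19 to 0.29, *Setdb1* from -0.0485 to 0.089, *Cbx1* from -0.012 to 0.14 and *Cbx3* from -0.27 to 0.014. The other 6 kept their sign in every fit.

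Replicate numbers are shared by the groups, but neither the labels nor the paper states a pairing. *Xist* was high and the Y-linked *Ddx3y* low in both replicate 1 libraries, and the reverse held in both replicate 2 libraries. By these genes, libraries of the same number matched in sex. Whether each number was a single source of cells split between the groups was not tested. Across genes, which are not independent, the replicate difference in WT and that in *Phf2* KO MEFs had a Pearson's r of 0.809. With the replicate number as a block, edgeR called 789 genes higher and 711 lower, DESeq2 183 and 119, and limma-voom 725 and 646. Of the 10 genes, edgeR's blocked fit called 0 higher (5.77% of all genes were) and 1 lower (5.20%): *Arid5b*, with a log2 fold change of -0.22 (edgeR's quasi-likelihood adjusted p = 0.088). With the block, limma-voom called 0 of the 10, and DESeq2 0 of the 6 to which it gave an adjusted p. Of the 33, the block gave 2 higher in edgeR (*Suv420h2* and *Arid5a*), 1 in DESeq2 and 2 in limma-voom, and 0 lower. The block turned the call of *Phf2* too, and leaves 1 residual degree of freedom.

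Depth limits *Suv39h2* (16 to 26 counts) and *Setdb2* (61 to 105), and repeated sequence limits *Cbx3*.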
